A study of Mus musculus with 4 samples.

Results

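Ribosome biogenesis and nucleolar genes were followed in mouse thymocytes with and without an intact Cxxc1 gene. The set comprised 40 genes, listed by symbol for their parts in transcription of ribosomal RNA, in its processing and in assembly of pre-ribosomes, and all 40 were found among the 35976 gene symbols of the count tables. Bulk RNA was sequenced from sorted thymocytes of the double-positive (DP) stage, when maturing T cells display CD4 together with CD8a, gated as positive for CD24 and negative for surface TCRb. Knockout (KO) mice were Cxxc1 F/F :Lck-cre and controls were Cxxc1 +/+ :Lck-cre, with 2 libraries per genotype. Both genotypes therefore carried the Lck-cre transgene, whose promoter is active in T-lineage cells. Cxxc1 encodes a protein that binds unmethylated CpG dinucleotides and is a subunit of the histone H3 methyltransferase complexes built on SETD1. The age of the animals is not given in the labels, nor is it stated that libraries came from separate animals, so p-values reflect only how far these samples differ, and that spread may be technical.

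Ribosomes are built in the nucleolus, where RNA polymerase I copies ribosomal DNA into a long precursor RNA. Small nucleolar ribonucleoproteins (snoRNPs) modify and help to cleave that precursor, a large complex called the small subunit processome folds its first part, and separate factors assemble the large subunit. Growing and dividing cells make ribosomes at a high rate, and the transcription factor Myc is known to activate many genes of this pathway. In the thymus, cells before and at the transition to the DP stage proliferate, and most DP cells are small and resting.

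Levels are given as CPM, read counts divided by library sizes that were scaled by the trimmed mean of M-values (TMM), and fold changes as log2 of KO over control ± standard error. Counts totalled 36243182 and 33544428 in KO 1 and KO 2, and 12150508 and 34820446 in control 1 and control 2. Cxxc1 itself stood at 35.7 and 39.4 CPM in KO 1 and KO 2, against 111 and 53.5 CPM in control 1 and control 2 (log2 fold change -1.12 ± 0.34, adjusted p = 0.199 in edgeR's quasi-likelihood test and 0.0337 in DESeq2), so the KO libraries lay below both controls without passing the edgeR test. Which exons were deleted was not given in the sources used here, and gene counts keep reads of the other exons. Of the DP markers, Cd4 and Cd8a were present in every library, at 142 to 277 and 258 to 478 CPM in the KO libraries and 893 to 896 and 1258 to 1811 CPM in the controls, and both fell (adjusted p = 0.0355 and 0.0442). Summed markers of B cells ranged from 7.92 to 10.8 CPM in the KO libraries and from 8.02 to 9.67 CPM in the controls. The sums were 31.9 and 53.9 CPM against 20.5 and 37.6 CPM for myeloid markers, and 38.0 and 26.2 CPM against 8.66 and 14.0 CPM for erythroid markers, of which the globin genes Hba-a1, Hba-a2, Hbb-bs and Hbb-bt were at 0 in both controls. Markers of thymic epithelium and stroma summed to 116 and 152 CPM against 133 and 164 CPM. Most of each sum was Pecam1, in which the genotypes overlapped, so the sum says little of the other genes. Of the 7 tested, 1 had both KO libraries above both controls and 3 had both below. The 1 above was Epcam, at 11.6 and 15.1 CPM against 1.09 and 4.88 CPM (adjusted p = 0.210 in edgeR and 0.0444 in DESeq2). Foxn1 was among the 3 below, at 0.17 and 0.06 CPM against 1.60 and 1.15 CPM. In bulk RNA, a change in the share of cells of one kind and a change in RNA per cell cannot be told apart.

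None of the 40 genes passed the test across all genes, and 37 of them (92.5%) had a positive log2 fold change, against 47.6% of all tested genes. At a Benjamini-Hochberg adjusted p under 0.05 from edgeR, 0 of the 40 were called, where 0.451% of the 20389 tested genes were called (92 genes, 55 higher and 37 lower) and 0.27% were called higher. At an unadjusted p under 0.05, 20 of the 40 (50%) were higher and 0 lower, where 6.97% of all tested genes were higher and 6.91% lower. DESeq2 called 7 of the 40 higher (17.5%) and 0 lower, where it called 2.21% of genes with an adjusted p higher (441 genes, and 506 lower). These 7 were Fbl, Nop58, Nhp2, Npm1, Mybbp1a, Wdr43 and Rrp1b. All 40 passed the low-count filter, the smallest count of any of them in a library being 60.

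The number of calls depended on the setting. Among the 40 genes edgeR called 11 with no low-count filter, where 1.73% of all genes were called higher, and 3 with a minimum of 5 CPM in 2 libraries, where 0.976% were. It called 0 of the 40 without KO 1 (0.0343% of all genes higher), 1 without KO 2 (0.231%), 2 without control 1 (1.81%) and 3 without control 2 (1.75%). With the replicate number as a block it called 18, where 4.58% of all genes were called higher.

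The median log2 fold change of the 40 genes was 0.76, against -0.04 over all tested genes. Values ran from -0.22 for Polr1e to 1.86 for Rrp1b, and 12 of the 40 genes had at least 2-fold more CPM in the KO. Both KO libraries lay above both control libraries in 22 of the 40 genes (55%), against 22.8% of all tested genes. That share was 27.3% among the 9255 genes above 10 CPM on average, where a positive log2 fold change was seen in 55.9% and an unadjusted p under 0.05 with higher KO in 9.64%. Polr1e was the one gene of the 40 in which both KO libraries lay below both controls, an order found in 24% of all tested genes, and in 17 genes the genotypes overlapped.

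**Figure D1:**
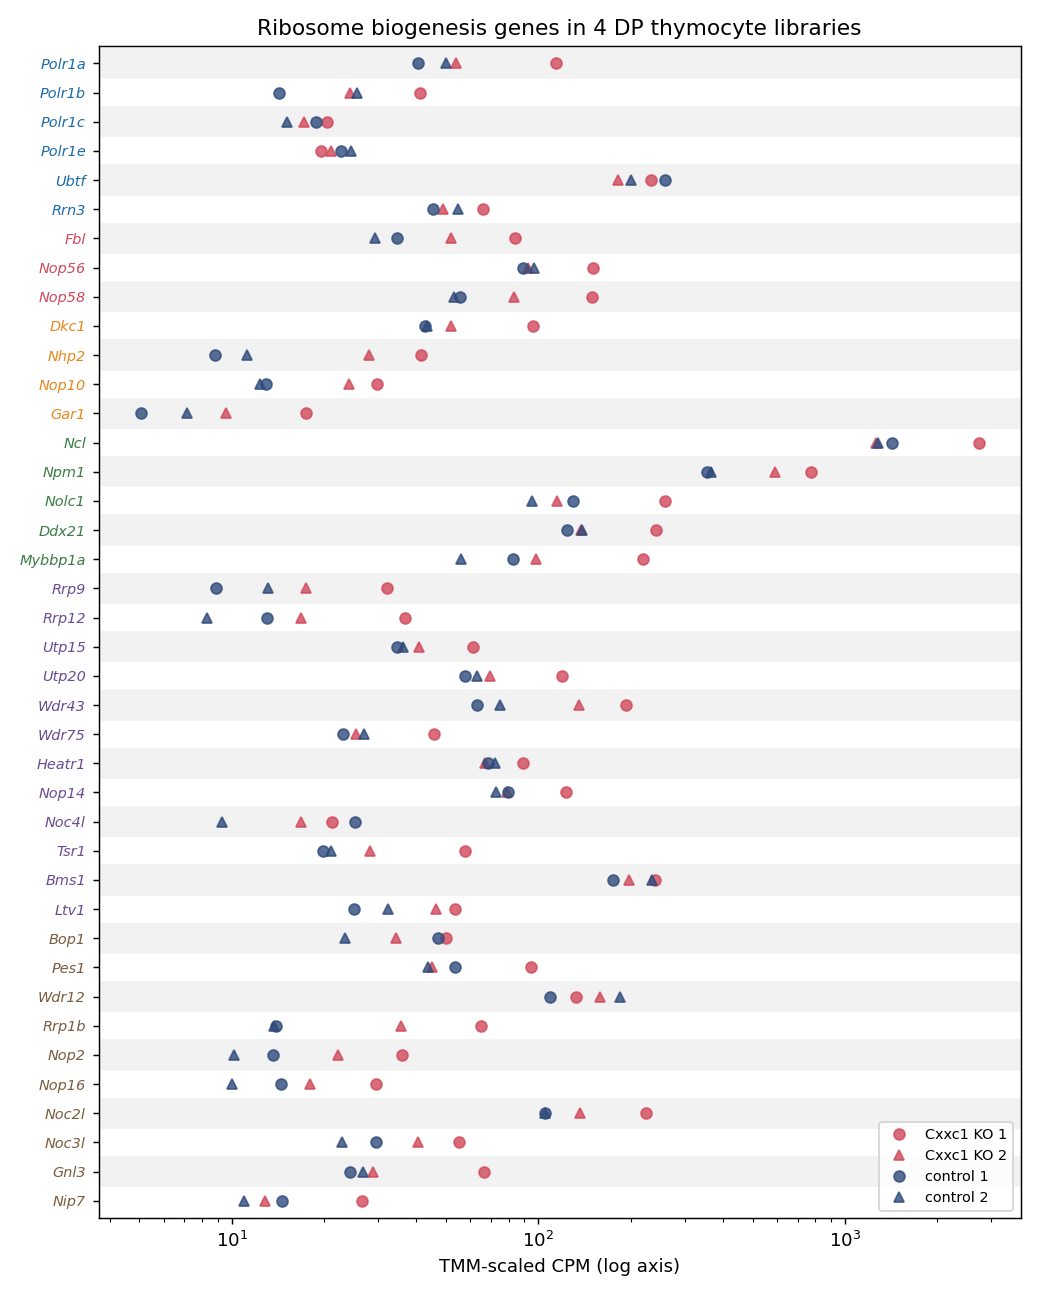
TMM-scaled CPM on a log axis of the 40 ribosome biogenesis genes in each library, with KO in red and control in blue, circles for replicate 1 and triangles for replicate 2, and gene names coloured by role. KO 1 is the highest of the 4 libraries in 36 genes, and both KO libraries lie above both controls in 22.

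The KO libraries differed from each other. KO 1 lay above KO 2 in 38 of the 40 genes, the exceptions being Polr1e and Wdr12, and the same order held in 46.1% of all tested genes. The ratio of KO 1 to KO 2 had a median of 1.64 over the 40 genes and ranged from 0.831 to 2.32, whereas the ratio of control 1 to control 2 had a median of 0.976. KO 1 exceeded both controls in 36 of the 40 genes, against 34.7% of all tested genes, and KO 2 exceeded both in 22, against 33.4%. Summed over the 40 genes, the level was 7133 and 4165 CPM in KO 1 and KO 2, against 3786 and 3677 CPM in control 1 and control 2. The means were 5649 ± 2098 CPM in the KO and 3732 ± 76.8 CPM in the control (SD, n = 2 each). Without the abundant transcripts Ncl and Npm1 the sums were 3637 and 2312 CPM, against 2004 and 2030 CPM.

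Without KO 1 the median log2 fold change of the 40 genes was 0.26, with 34 positive values and 4 genes higher at an unadjusted p under 0.05, and without KO 2 it was 1.07, with 38 and 30. Proliferation genes also stood higher in KO 1 than in KO 2 in 20 of 20 cases, and higher in control 1 than in control 2 in 19 of 20. Their summed level was 6596 and 4353 CPM in KO 1 and KO 2, against 6819 and 5020 CPM in the controls. The median log2 fold change of those 20 genes was -0.01, 9 of them being positive, 0 called by edgeR, 0 at an unadjusted p under 0.05 and 0 called by DESeq2. Values ran from -0.63 for Rrm2 to 0.60 for Mcm6. Mcm2 to Mcm7 were all positive, and Mki67, Top2a, Cdk1, Ccnb1, Ccna2, Bub1, Plk1 and Aurkb all negative. Both KO libraries lay below both controls in 4 of the 20, against 24% of all tested genes, and above both in 0, against 22.8%. Markers of early, double-negative thymocytes summed to 3183 and 1579 CPM in KO 1 and KO 2, against 822 and 526 CPM in the controls. Most of that sum was Notch1, at 2313 and 1084 CPM, against 653 and 387 CPM. Genes listed as DP markers summed to 5334 and 8232 CPM, against 12205 and 16041 CPM. The largest part of that sum was Rag1, at 2997 and 4488 CPM, against 4967 and 7055 CPM. Of 10 early markers edgeR called 4 higher and 0 lower and DESeq2 6 higher and 1 lower (Cd44). Of the 12 genes listed as DP markers edgeR called 0 higher and 3 lower, and DESeq2 called 1 higher and 7 lower. The 1 higher was Ptcra, a gene of the pre-TCR that is not specific to the DP stage. The part of these cell-state differences in the level of ribosome biogenesis genes was not tested.

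**Figure D2:**
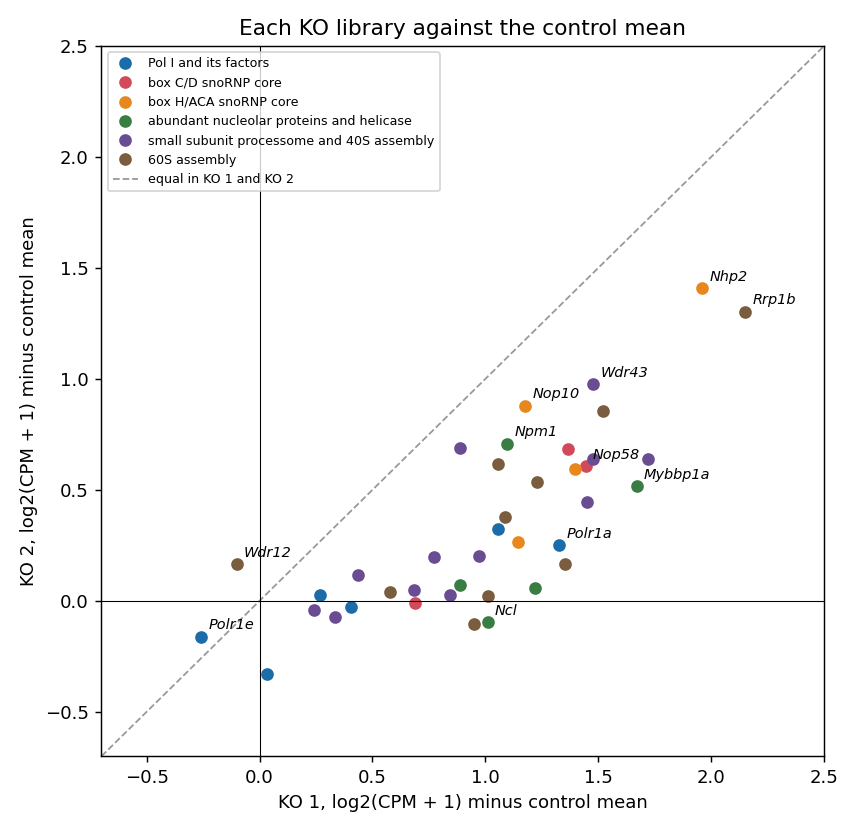
Each point is 1 of the 40 genes, plotted as log2(CPM + 1) minus the control mean, in KO 1 on the horizontal axis and in KO 2 on the vertical axis, with the dashed line where both are equal. All but Polr1e and Wdr12 lie below the dashed line, and Rrp1b and Nhp2 lie farthest from 0 in both KO libraries.

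Myc, whose product dimerises with Max and binds the DNA sequence CACGTG, had 201 and 109 CPM in KO 1 and KO 2, against 21.9 and 13.0 CPM in control 1 and control 2. It rose by 3.16 ± 0.38 on the log2 scale (edgeR adjusted p = 0.0156), and without KO 1 the value was 2.69 with an adjusted p of 0.0653. KO 1 was the higher KO library for Myc, as it was for 38 of the 40 ribosome biogenesis genes. Max had 100 and 95.8 CPM in the KO libraries, against 90.5 and 71.5 CPM in the controls. Of 11 genes of the Myc, Max and Mxd network Myc was the one called. At an unadjusted p under 0.05 from edgeR, 2 of the 11 were lower, against 6.91% of all tested genes. Mycn had 2.30 and 1.57 CPM, against 10.8 and 5.08 CPM, and Mxd3 had 23.5 and 15.7 CPM, against 52.6 and 25.8 CPM. A part of any of these factors in the level of the 40 genes was not tested.

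RefSeq promoter windows on GRCm38.p6, each of 300 bases from 250 before to 50 after a start site, were given for 36 of the 40 genes. CACGTG, which reads the same on both strands, occurred in 8 of their 45 windows (17.8%), against 7.15% of all 32851 windows and 8.62% of the windows of tested genes. The 8 genes with the hexamer were Nop2, Ltv1, Utp20, Pes1, Mybbp1a, Tsr1, Rrn3 and Wdr43. Their log2 fold changes had a median of 0.93 and ran from 0.20 to 1.29, and those of the 28 genes without it had a median of 0.66 and ran from -0.22 to 1.86. The windows of the 36 genes held a median of 23 CpG dinucleotides, against 7 in all windows and 15 in those of tested genes, with a range of 5 to 44. The hexamer itself contains a CpG, and its share was not compared between windows of equal CpG content. Some genes had several windows, Ubtf 6 of them, so windows are not separate genes.

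The windows of the 5 genes with the smallest p among those that have one are shown because these genes separated the genotypes in every library. Capitals mark each CpG, the dinucleotide that the CXXC1 protein binds when it is unmethylated, and caCGtg is the hexamer. The windows lie on the plus strand at chr17:32035912-32036211 (Rrp1b, 10 CpG), chr11:51619523-51619822 (Nhp2, 18 CpG), chr17:71615965-71616264 (Wdr43, 23 CpG), chr1:59684756-59685055 (Nop58, 17 CpG) and chr6:125131633-125131932 (Nop2, 35 CpG).
Rrp1b: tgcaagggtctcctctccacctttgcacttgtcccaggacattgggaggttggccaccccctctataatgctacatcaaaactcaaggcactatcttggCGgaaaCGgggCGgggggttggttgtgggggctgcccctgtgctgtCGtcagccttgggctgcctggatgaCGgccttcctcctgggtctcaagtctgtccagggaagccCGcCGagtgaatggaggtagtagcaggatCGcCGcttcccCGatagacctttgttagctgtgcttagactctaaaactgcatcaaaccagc
Nhp2: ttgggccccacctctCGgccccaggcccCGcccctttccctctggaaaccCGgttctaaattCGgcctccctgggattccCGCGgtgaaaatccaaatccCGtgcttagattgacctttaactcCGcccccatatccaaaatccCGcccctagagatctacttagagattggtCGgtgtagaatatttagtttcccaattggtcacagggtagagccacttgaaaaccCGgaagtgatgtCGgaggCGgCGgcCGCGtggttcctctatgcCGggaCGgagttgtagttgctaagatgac
Wdr43: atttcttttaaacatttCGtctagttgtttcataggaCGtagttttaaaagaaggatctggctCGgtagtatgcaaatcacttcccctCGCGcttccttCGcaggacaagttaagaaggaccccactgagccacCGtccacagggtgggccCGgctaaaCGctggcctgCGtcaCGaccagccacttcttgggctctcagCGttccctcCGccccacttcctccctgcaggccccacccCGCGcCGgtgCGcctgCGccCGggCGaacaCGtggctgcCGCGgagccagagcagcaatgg
Nop58: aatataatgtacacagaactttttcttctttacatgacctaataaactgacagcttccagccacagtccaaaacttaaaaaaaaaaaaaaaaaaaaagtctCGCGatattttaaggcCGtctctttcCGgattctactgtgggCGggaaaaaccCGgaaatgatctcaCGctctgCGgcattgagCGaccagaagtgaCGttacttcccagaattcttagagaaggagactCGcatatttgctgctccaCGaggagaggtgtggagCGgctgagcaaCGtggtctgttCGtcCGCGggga
Nop2: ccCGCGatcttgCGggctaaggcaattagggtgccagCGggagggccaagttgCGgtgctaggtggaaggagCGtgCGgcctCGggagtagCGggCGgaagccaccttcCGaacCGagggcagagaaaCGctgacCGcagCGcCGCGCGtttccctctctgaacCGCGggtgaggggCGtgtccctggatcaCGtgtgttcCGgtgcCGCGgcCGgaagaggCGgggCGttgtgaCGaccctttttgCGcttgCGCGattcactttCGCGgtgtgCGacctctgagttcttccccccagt
The hexamer begins 17 bases after the start site in Wdr43 and 60 bases before it in Nop2, and the windows of Rrp1b, Nhp2 and Nop58 hold none. Rrp1b, with the largest log2 fold change, had the fewest CpGs of these 5 windows, and a second Rrp1b window, at chr17:32048035-32048334, held 5. A match of letters is a description of the window and shows no binding.

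The 6 genes of RNA polymerase I and its initiation factors had the smallest median of the role groups, 0.18, with 4 positive values. That median covers these 6 only, and further genes of the kind are among the other pathway genes below. Of subunits there, Cd3eap had 1.41 ± 0.42, Polr1d 0.93 ± 0.26, Twistnb 0.44 ± 0.28 and Znrd1 -0.08 ± 0.32. The initiation factor genes Taf1a to Taf1d ran from -0.06 to 0.34. Polr1a encodes the largest subunit of the polymerase. It had 114 and 53.8 CPM in KO 1 and KO 2, against 40.5 and 50.1 CPM in control 1 and control 2, a log2 fold change of 0.89 ± 0.35 (edgeR adjusted p = 0.305). KO 2 lay only just above control 2. Polr1b, the second largest subunit, had 41.0 and 24.3 CPM, against 14.3 and 25.7 CPM (0.70 ± 0.39, edgeR adjusted p = 0.475), with KO 2 below control 2. Rrn3, the factor that makes the polymerase competent to initiate, had 66.2 and 48.8 CPM in the KO libraries, against 45.4 and 54.6 CPM in the controls (0.20 ± 0.27). Ubtf, the architectural factor that binds ribosomal DNA, had 234 and 182 CPM, against 259 and 201 CPM (-0.15 ± 0.24, edgeR adjusted p = 0.868). Its libraries overlapped, and the sign turned without KO 2 (0.03) and without control 1 (0.05). Polr1c, a subunit shared with RNA polymerase III, had 0.15 ± 0.34. Polr1e, another polymerase I subunit, had 19.6 and 21.0 CPM in the KO libraries, against 22.7 and 24.6 CPM in the controls, and its log2 fold change of -0.22 ± 0.31 was within its error.

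The box C/D snoRNP guides methylation of ribosomal RNA. Fbl (chromosome 7, 28169710 to 28179269 on GRCm38), the methyltransferase fibrillarin, had 83.8 and 51.8 CPM in KO 1 and KO 2, against 34.6 and 29.4 CPM in control 1 and control 2. Its log2 fold change was 1.09 ± 0.30 (edgeR adjusted p = 0.172, DESeq2 adjusted p = 0.0359), without overlap between genotypes. Nop58 (chromosome 1, 59684971 to 59719044) had 149 and 83.2 CPM in the KO libraries, against 55.3 and 53.2 CPM in the controls (1.10 ± 0.30, edgeR adjusted p = 0.162, DESeq2 adjusted p = 0.0230). Nop56, the related partner of Nop58 in the same particle, had 151 and 92.3 CPM, against 89.3 and 96.9 CPM (0.38 ± 0.27, edgeR adjusted p = 0.602), so KO 2 lay between the 2 controls. The difference between Nop56 and Nop58 in response was not tested.

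The box H/ACA snoRNP converts uridine to pseudouridine. Its 4 core proteins were the one role group in which every member had both KO libraries above both controls, against 22.8% of all tested genes. The group median was 1.12, and all 4 were higher at an unadjusted p under 0.05 from edgeR, against 6.97% of all tested genes. Nhp2 (chromosome 11, 51619735 to 51623714) had 41.6 and 28.1 CPM in KO 1 and KO 2, against 8.83 and 11.2 CPM in control 1 and control 2, a 3.46-fold difference. Its log2 fold change of 1.79 ± 0.35 missed the threshold in edgeR (adjusted p = 0.0729) and passed it in DESeq2 (adjusted p = 0.00077). Without control 1 and without control 2 it also passed in edgeR. Nop10, the smallest core protein, had 29.8 and 24.1 CPM, against 12.9 and 12.4 CPM (1.09 ± 0.33, edgeR adjusted p = 0.194), and its KO libraries were close to each other. Gar1, which binds dyskerin, had 17.4 and 9.58 CPM in the KO libraries, against 5.04 and 7.13 CPM in the controls (1.14 ± 0.47). Dkc1, the pseudouridine synthase dyskerin, had 95.9 and 51.8 CPM, against 42.5 and 43.2 CPM (0.78 ± 0.31, edgeR adjusted p = 0.314).

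Among the general nucleolar proteins, Npm1 and Mybbp1a separated the genotypes, while Ncl did so in 1 KO library only. Npm1 (chromosome 11, 33152287 to 33163206), the chaperone nucleophosmin, had 772 and 590 CPM in KO 1 and KO 2, against 355 and 366 CPM in control 1 and control 2 (0.92 ± 0.24, edgeR adjusted p = 0.139, DESeq2 adjusted p = 0.00777). Processed copies of Npm1 exist in the mouse genome, and how reads matching several of them were counted was not given in the sources used here. Ncl, the abundant protein nucleolin, had 2724 and 1264 CPM in the KO libraries, against 1427 and 1281 CPM in the controls (0.56 ± 0.34, edgeR adjusted p = 0.530). KO 2 lay below both controls, and without KO 1 the log2 fold change was -0.06. Mybbp1a, a nucleolar Myb-binding protein that takes part in pre-rRNA processing, had 219 and 97.9 CPM, against 82.8 and 56.0 CPM (1.19 ± 0.37, edgeR adjusted p = 0.212, DESeq2 adjusted p = 0.0327). Nolc1, a chaperone of snoRNPs, had 259 and 115 CPM in the KO libraries, against 129 and 95.1 CPM in the controls (0.74 ± 0.36, edgeR adjusted p = 0.405), and the helicase gene Ddx21 had 0.54 ± 0.29. In both, KO 2 lay within the range of the controls.

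All 12 genes of the small subunit processome and later 40S assembly had a positive log2 fold change, with a median of 0.58. Both KO libraries lay above both controls in 7 of them, against 22.8% of all tested genes. Wdr43 (chromosome 17, 71615895 to 71659031), a processome subunit, had 193 and 136 CPM in KO 1 and KO 2, against 63.1 and 74.7 CPM in control 1 and control 2. Its 2.38-fold difference (1.25 ± 0.25) had an edgeR adjusted p of 0.0788 and a DESeq2 adjusted p of 0.000927, it was also called by edgeR without control 2, and KO 2 by itself lay above both controls. Its promoter window, printed above, holds the hexamer. Other subunits of the same arm of the processome, Wdr75, Utp15 and Heatr1, had log2 fold changes of 0.50 ± 0.34, 0.52 ± 0.29 and 0.15 ± 0.24. Rrp12, a nucleolar repeat protein, had 36.7 and 16.8 CPM in the KO libraries, against 13.0 and 8.34 CPM in the controls (1.33 ± 0.45, edgeR adjusted p = 0.237). Rrp9, a protein specific to the U3 snoRNP, had 1.16 ± 0.41. Late in the 40S pathway, Tsr1 had 57.6 and 28.3 CPM, against 19.9 and 21.0 CPM (1.07 ± 0.37, edgeR adjusted p = 0.249), and Ltv1, an export and assembly factor, had 53.5 and 46.4 CPM, against 25.1 and 32.2 CPM (0.80 ± 0.28). In Tsr1, 32.3% of exon bases overlap the gene Srr on the opposite strand, and the counting's strand setting was not given in the sources used here. The GTPase Bms1 had 0.09 ± 0.24, and the processome scaffold protein Utp20 had 0.64 ± 0.29. Noc4l and Nop14, whose yeast counterparts form a complex in 40S assembly, had 0.15 ± 0.47 and 0.40 ± 0.27.

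The 10 genes of 60S assembly had a median of 0.83, with 9 positive values. Rrp1b (chromosome 17, 32036100 to 32062865), a nucleolar protein of pre-rRNA processing, had the largest log2 fold change and smallest p of the 40 genes. It had 65.0 and 35.7 CPM in KO 1 and KO 2, against 14.0 and 13.8 CPM in control 1 and control 2, a 3.63-fold difference (1.86 ± 0.35). The adjusted p was 0.0664 in edgeR and 0.000185 in DESeq2, and edgeR called it without KO 2, without control 1 and without control 2 but not without KO 1, where the log2 fold change was 1.40. Nop2, a ribosomal RNA methyltransferase of the large subunit and the most CpG-rich of the 5 promoter windows printed, had 35.8 and 22.2 CPM in the KO libraries, against 13.6 and 10.2 CPM in the controls (1.29 ± 0.37, edgeR adjusted p = 0.184). Noc3l had 55.2 and 40.4 CPM, against 29.5 and 22.9 CPM (0.87 ± 0.30, edgeR adjusted p = 0.244). Noc2l, which forms a complex with Noc3l in yeast, had 0.78 ± 0.27 without overlap. In Noc2l, 20.9% of exon bases overlap Samd11 on the opposite strand. Nop14 shares 5.28% of its exon bases with an annotated gene on the opposite strand, and 13 further members share under 5% of theirs. Nop16, the nucleostemin gene Gnl3 and Nip7, which acts in 60S biogenesis in yeast, had 0.96 ± 0.39, 0.90 ± 0.39 and 0.63 ± 0.42.

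The 3 subunits of the PeBoW complex, which is needed for maturation of the large-subunit RNAs, were among the 17 of the 40 genes that overlapped between genotypes. Of all tested genes, 22.8% had both KO libraries above both controls and 24% had both below. Pes1 had 94.4 and 44.9 CPM in KO 1 and KO 2, against 53.6 and 43.7 CPM in control 1 and control 2 (0.52 ± 0.35). Bop1 had 50.2 and 34.2 CPM, against 46.9 and 23.5 CPM (0.27 ± 0.37). Wdr12 had 132 and 159 CPM, against 109 and 184 CPM (-0.01 ± 0.28). The control libraries alone spanned the KO range of Wdr12, and its sign differed between settings.

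**Figure D3:**
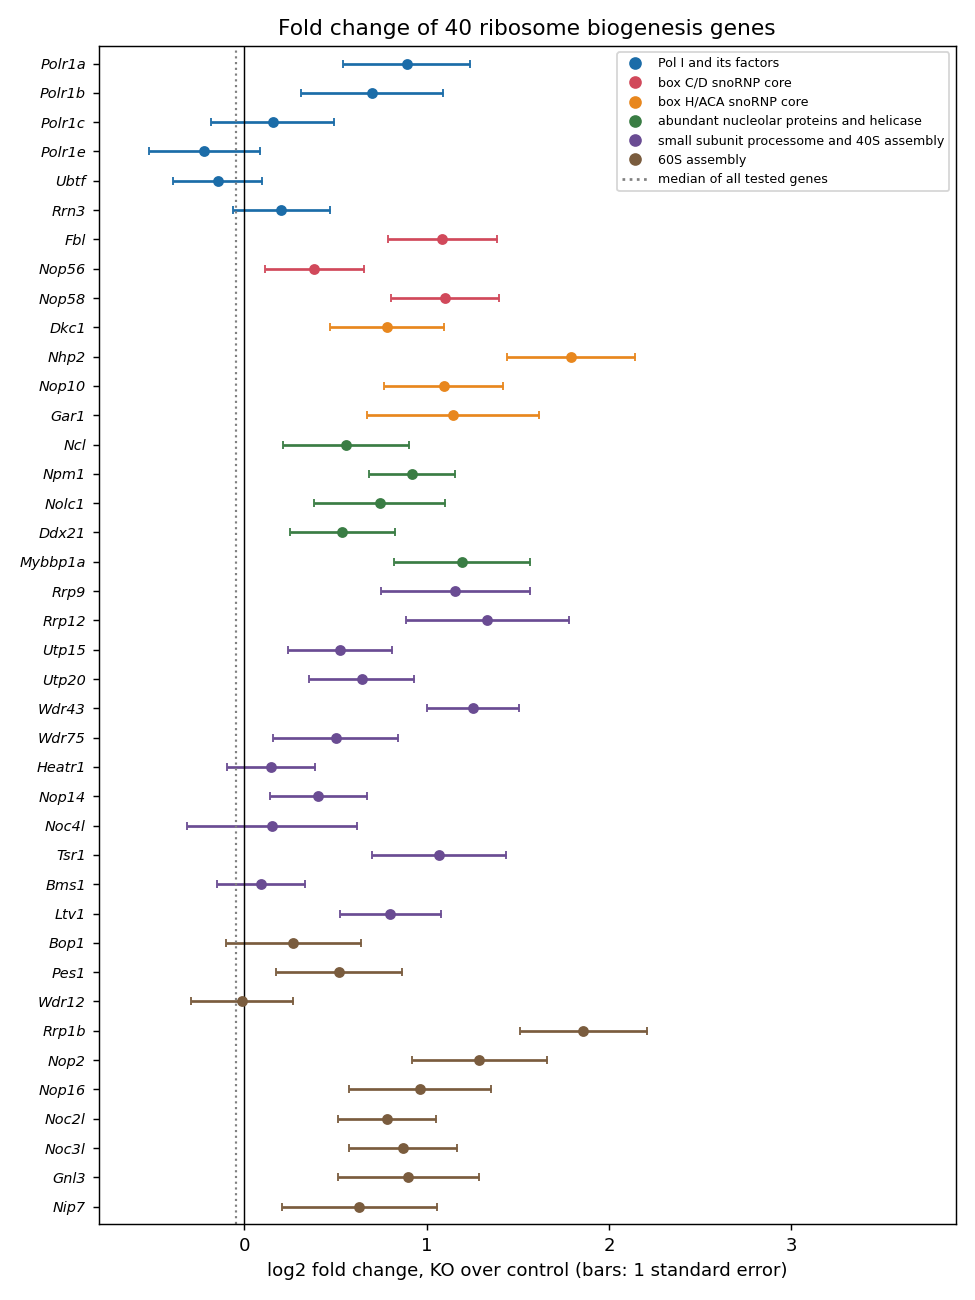
Log2 fold change of KO over control for each of the 40 genes, coloured by role, with bars of 1 standard error and a dotted line at the median of all tested genes (-0.04). Values run from -0.22 to 1.86, and the 6 listed genes of RNA polymerase I and its factors have the smallest median of the role groups, 0.18.

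Per kilobase of exon, Npm1 and Ncl led in both genotypes, at 255 and 196 CPM per kilobase on average in the KO libraries, against 135 and 133 CPM per kilobase in the controls. The levels of this pair did not differ beyond their spread in the controls. Nhp2 stood at rank 10 of 40 in the KO libraries, with 30.4 CPM per kilobase, and at rank 20 in the controls, with 8.74. Rrp1b had the lowest level of the 40 in the controls, at 1.80 CPM per kilobase and rank 40, and stood at 6.53 and rank 36 in the KO libraries. Polr1e took rank 40 in the KO libraries, with 5.21 CPM per kilobase, and rank 26 in the controls, with 6.07. Lengths are merged exons of the GENCODE M21 annotation, which may differ from the annotation used for counting.

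A further 119 genes of the same pathway, taken by function, gave a median log2 fold change of 0.38, with 107 positive values. EdgeR called 0 of them, and 15 (12.6%) were higher and 0 lower at an unadjusted p under 0.05, against 6.97% higher over all tested genes and 9.64% among those above 10 CPM. DESeq2 called 3 (2.52%), Nat10, Rcl1 and Nhp2l1, close to the 2.21% it called higher over all genes. Both KO libraries lay above both controls in 54 of the 119 (45.4%), against 22.8% of all tested genes, and below both in 3 (2.52%), against 24%. Nat10, which acetylates small-subunit RNA, had 92.7 and 61.4 CPM in KO 1 and KO 2, against 36.6 and 32.0 CPM in control 1 and control 2 (1.17 ± 0.28, edgeR adjusted p = 0.117). Rcl1, a processome component, had 37.1 and 25.9 CPM, against 13.9 and 10.3 CPM (1.39 ± 0.35, edgeR adjusted p = 0.133). Aatf, a nucleolar protein of small-subunit processing, had 114 and 96.8 CPM, against 57.9 and 60.9 CPM (0.83 ± 0.23, edgeR adjusted p = 0.169). As among the 40 genes, KO 1 was commonly the higher KO library, in 106 of the 119, and without KO 1 the median was 0.20 with 91 positive values. Whether the 40 and the 119 genes differ was not tested. The precursor ribosomal RNA itself was not analysed here.

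**Figure D4:**
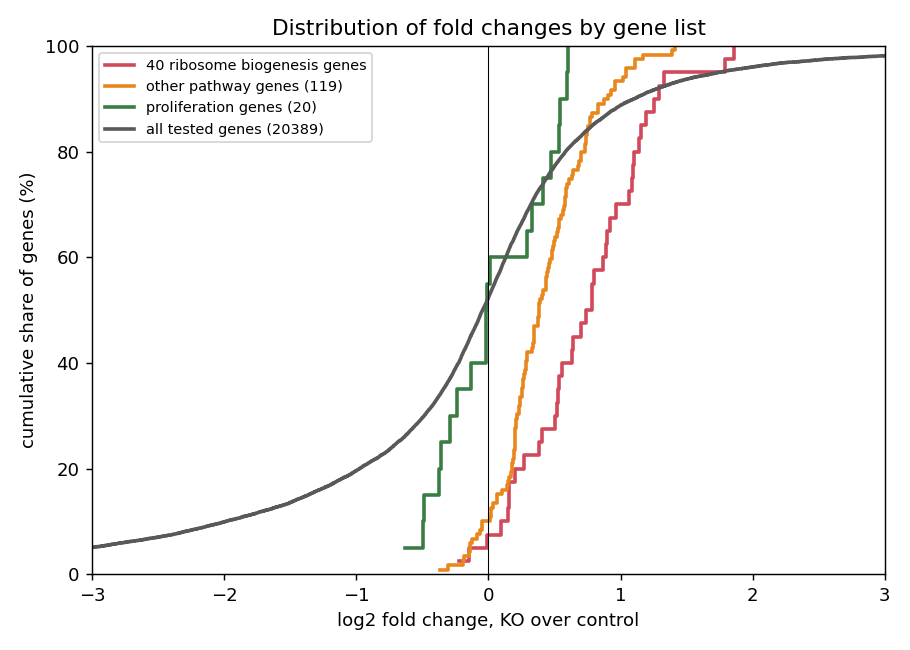
Cumulative share of genes (vertical axis, %) by log2 fold change of KO over control (horizontal axis) for the 40 ribosome biogenesis genes, 119 other pathway genes, 20 proliferation genes and all 20389 tested genes. The curves of the 40 and the 119 genes lie to the right of 0 for all but 3 and 12 genes, while proliferation genes spread around 0.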

How the data were processed

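Bulk RNA-seq of sorted DP thymocytes was analysed in 2 KO and 2 control libraries, grouped by sample title. Per the labels' protocols, TRIzol-extracted total RNA (10 ng) went into the SMART-seq Standard Kit. The deposited files hold whole-number counts of reads per gene symbol, not normalised. Per the file headers reads were aligned with HISAT2, and the submitters' processing notes list HISAT2 2.2.1 and cutadapt 4.0, edgeR 3.36.0, featureCounts 2.0.8 and mm10. Annotation, strand setting and how multiply matching reads were handled were not given in the sources used here.

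The tests used edgeR 4.0.16 under R 4.3.3: filterByExpr defaults (minimum count 10, minimum total 15) kept 20389 genes, followed by TMM scaling, estimateDisp, glmQLFit and glmQLFTest with genotype as the only term, two-sided, adjusted by Benjamini and Hochberg's method over all tested genes and called under 0.05. Standard errors are the log2 fold change divided by the square root of F. As an alternative tool, DESeq2 1.42.0 left 396 genes with no adjusted p. A floor of 3 counts is 0.0828 and 0.0894 CPM in KO 1 and KO 2, and 0.247 and 0.0862 CPM in control 1 and control 2, and reflects counting error alone. No library was a duplicate of another: the smallest chi-square for a pair, divided by its degrees of freedom, was 51.9.

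The 40 genes, the role groups and the other lists were chosen with earlier results of these data known. Values in every library are given for genes called, for the 3 with the smallest p in each role group, for the genes with the lowest and highest fold change and for Ncl, Npm1, Fbl, Nop56, Nop58, Dkc1, Polr1a, Polr1b and Ubtf, and, outside the 40, for Cxxc1, Myc and the 3 other pathway genes with the smallest p. Cd44, Ptcra and values of Gar1, Ltv1, Pes1, Bop1, Wdr12 and Max, and all values of Cd4 and Cd8a, were added after they were seen. So were Pecam1, Epcam, Foxn1, Notch1, Rag1, Mycn, Mxd3, and the proliferation genes and further polymerase I genes that are named. Of the 126 symbols listed for other pathway genes, which include older and newer names of the same gene, 119 were found and tested. The fits were run on simulated counts with known changes, and the outcome is not reported here. The simulated libraries held no shift shared by many genes within a single library, so that run cannot address such a shift. Gene positions are from GENCODE M21 on GRCm38, the assembly that mm10 names, and all 40 genes matched by symbol.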

Additional observations from a re-analysis of the deposited data

How the results depend on the processing

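The log2 fold changes of the 40 ribosome biogenesis genes were recomputed under 12 alternatives, 480 values in all: 421 kept their sign and side of the threshold, 45 kept their sign and became called, and 14 changed sign. Of the 40 genes, edgeR called 0 with relative log expression size factors, with library totals only, with small noncoding RNAs left out and in its newer quasi-likelihood setting. Over all genes in these settings, in the same order, edgeR called 0.265%, 0.235%, 0.27% and 0.314% higher. With no low-count filter it called 11 of the 40, 5 of the other pathway genes and 920 of all genes, with a minimum of 5 CPM in 2 libraries 3 of the 40 and 228 of all genes, and DESeq2 called 7, 3 and 947. In these calls every one of the 40 genes concerned was higher in the KO. Leaving out 1 library at a time gave 0 to 3 calls among the 40, 0 to 1 among other pathway genes and 9 to 619 over all genes. In these fits 1 genotype has a single library, assumed to vary like the other genotype. It gave a median log2 fold change of the 40 genes of 0.26 to 1.07, both ends set by the KO libraries, and 4 to 30 genes at an unadjusted p under 0.05 (the lowest without KO 1). The cause of these differences was not tested.

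With the replicate number as a block, 18 of the 40 genes, 12 of the other pathway genes and 1599 of all genes were called, with a median of 0.71 over the 40. Deviations of same-numbered libraries correlated at 0.12 over all tested genes, 0.35 over the 9255 genes above 10 CPM and 0.17 over the 40, and with 2 pairs the labels do not show that the numbers pair the samples.

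The log2 fold change of Wdr12 was 0.024 with library totals only, 0.013 with no low-count filter and 0.031 with the replicate block. With 1 library left out, signs changed within ranges of -0.34 to 0.42 for Wdr12, -0.32 to 0.048 for Ubtf, -0.062 to 1.01 for Ncl, -0.038 to 0.34 for Heatr1, -0.41 to 1.03 for Noc4l, -0.11 to 0.32 for Bms1, -0.15 to 0.85 for Bop1 and -0.077 to 0.96 for Pes1. With 2 libraries per genotype, the median standard error of the 40 log2 fold changes was 0.33.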

Other observations

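Small nucleolar RNAs (snoRNAs) lie within several of the 40 genes, and 12 of these have rows of their own in the count tables, 11 of them tested, in 5 hosts. Of the 12, 5 share bases with merged exons of the host, among them Snord57 with 72 bases and Snora75 with 133, which is their whole length. The 11 had a median log2 fold change of -0.48 with 2 positive values, against 47.6% positive over all tested genes. Of the 11, 0 were called by edgeR, 0 were at an unadjusted p under 0.05 and 0 were called by DESeq2. Snord57, in the Nop56 gene, had 7.20 and 5.03 CPM in KO 1 and KO 2, against 28.6 and 5.05 CPM in control 1 and control 2 (log2 fold change -1.45 ± 0.70, edgeR adjusted p = 0.403), where the host had 0.38. Snora75, in the Ncl gene, had 15.8 and 4.61 CPM, against 27.7 and 7.13 CPM (-0.76 ± 0.70), where the host had 0.56. Control 1 was the highest of the 4 libraries for both. Snord11, in the Nop58 gene, was the one snoRNA with both KO libraries above both controls, an order found in 22.8% of all tested genes. It had 2.18 and 3.48 CPM against 1.77 and 0.923 CPM (1.09 ± 0.92), where the host had 1.10. Snord110, in Nop56, and Gm24148, in Ncl, had both KO libraries below both controls, as did 24% of all tested genes. These examples were chosen after their values were seen. Reads of the host transcript or its precursor that cover a snoRNA cannot be told apart from those of the snoRNA.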
